A study of Mus musculus with 4 samples.

Results

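Esr1 encodes estrogen receptor alpha, a nuclear receptor that binds estrogen and acts as a transcription factor. In liver it is known for its part in lipid and glucose metabolism. CpG islands near the starts of genes are mostly unmethylated in healthy tissue, whereas the CpGs of gene bodies are mostly methylated. DNA methylation across Esr1 was measured by enhanced reduced representation bisulfite sequencing (ERRBS), which reads the CpGs close to restriction enzyme cut sites, in total livers of 4 male mice. Mixed-1 and Mixed-2 came from a mixed, undefined background that includes C57BL/6J, and B6-1 and B6-2 were C57BL/6 mice. All were 6 to 8 weeks old, fed a normal diet and not treated. The Mixed and B6 mice were housed at different institutions, and an effect of housing cannot be told apart from one of strain. Where values are given per mouse, the first of a pair belongs to replicate 1 and the other to replicate 2.

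The Esr1 locus was taken as the gene body (chromosome 10, 4611989 to 5005633, plus strand, mm10) with 5000 bp on each side. A cytosine counted as common when all 4 mice had at least 10 reads over it, the coverage that the authors called CpG10. The locus held 80 common cytosines at 67 CpGs, of 1276684 common cytosines in the series, and none of them lay in the flanks. In all, 133 cytosines of the locus were covered in at least 1 mouse. The Mixed mice had 98 and 87 of them and the B6 mice 123 and 126. The median coverage of the common cytosines was 32 and 27 reads in the Mixed mice and 59 and 54 in the B6 mice, so the Mixed mice were read less deeply and depth cannot be told apart from strain.

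Esr1 was chosen by the partial methylation of a start interval (4712271 to 4712922, 652 bp), which was itself selected on these measured values. Its level is therefore given as a description, without a test. The interval had been labelled a promoter, but by the curated starts it lies elsewhere. It began 2113 bp and ended 2764 bp downstream of the nearest curated RefSeq start, at 4710158, and more than 1000 bp from every curated start. It began 305 bp and ended 956 bp downstream of a start that RefSeq only predicts, at 4711966, and so lies within 1000 bp of that start. The interval contains the first coding exon (4712313 to 4712847, with coding sequence from 4712384) and the beginning of the intron that follows.

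The stretches of sequence in which most partly or weakly methylated cytosines lay are printed here from the plus strand of the reference, GRCm38.p6, 5′ to 3′, with each CpG in capitals. The first spans the common cytosines of the start interval (chr10:4712601-4712900). It holds 32 CpGs, not all of which were read in all mice. The second is the intronic stretch before the curated start (chr10:4709943-4710157), and the third is part of the cluster in the first intron (chr10:4621201-4621500).
Start interval: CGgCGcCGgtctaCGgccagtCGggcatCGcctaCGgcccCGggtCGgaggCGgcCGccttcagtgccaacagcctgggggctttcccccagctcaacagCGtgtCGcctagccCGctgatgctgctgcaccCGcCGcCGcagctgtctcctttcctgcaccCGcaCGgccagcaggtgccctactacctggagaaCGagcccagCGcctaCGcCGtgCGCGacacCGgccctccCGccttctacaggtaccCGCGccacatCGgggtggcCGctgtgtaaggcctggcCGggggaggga
Before the curated start: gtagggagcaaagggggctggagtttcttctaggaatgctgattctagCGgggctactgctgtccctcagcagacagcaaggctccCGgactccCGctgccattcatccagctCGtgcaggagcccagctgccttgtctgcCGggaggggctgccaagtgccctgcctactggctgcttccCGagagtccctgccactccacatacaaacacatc
First intron cluster: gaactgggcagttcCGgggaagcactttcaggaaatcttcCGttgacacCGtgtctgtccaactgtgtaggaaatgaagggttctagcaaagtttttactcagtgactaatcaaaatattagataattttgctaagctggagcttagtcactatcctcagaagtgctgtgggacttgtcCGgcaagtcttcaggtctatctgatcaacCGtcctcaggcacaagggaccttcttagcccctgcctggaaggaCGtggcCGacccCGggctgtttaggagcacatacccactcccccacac

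The start interval was dense in CpGs. It held 65 CpGs, or 9.97 per 100 bp, with a GC content of 68.6% and an observed over expected CpG ratio of 0.861. The whole gene body held 0.794 CpGs per 100 bp, with a GC content of 41.1% and a ratio of 0.188. The 2001 bp around the curated start at 4710158 had a ratio of 0.326 and those around the curated start at 4611989 a ratio of 0.411. The interval was thus the CpG-rich stretch among these 3 regions, although neither curated start lies in it. In the 300-base RefSeq promoter windows, the GC box GGGCGG was present on either strand in 35.7% of 32851 windows and in neither of the 2 Esr1 windows. The short estrogen response motif GGTCA, which is also contained in the full element, was present in 40.5% of the windows. Esr1 had 1 match at the start at 4611989 and 0 at the start at 4710158.

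Of 55 cytosines of the start interval covered in at least 1 mouse, 28 were common, at 19 of the 65 CpGs and between 4712607 and 4712891. Their mean methylation was 31.3% and 32.9% in the Mixed mice and 30.7% and 31.0% in the B6 mice, or 31.5% ± 0.977 (SD, n = 4). In this mean the 4 mice lay within a narrow band. The band was wider with a coverage of at least 20 reads, from 28.2% in Mixed-1 to 37.6% in Mixed-2. It was also wider with all cytosines of each mouse, from 24.8% in B6-1 to 33.3% in B6-2. In the deposited reads pooled over these cytosines, the level was 30.6% in Mixed-1 (95% Wilson interval 27.5 to 33.8%), 36.3% in Mixed-2 (32.9 to 39.7%), 30.2% in B6-1 (27.8 to 32.7%) and 30.3% in B6-2 (27.8 to 32.9%). These intervals leave out biological variation and treat each cytosine of a read as a separate draw. Since 1 read covers several cytosines and reads carried no molecular identifiers, they are too narrow even for counting error. Bisulfite sequencing does not separate methylated from hydroxymethylated cytosine. In total liver, a partial level in every cell and full methylation in a share of the cells cannot be told apart.

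Partial levels were seen at single cytosines, and the mean did not arise from averaging methylated with unmethylated cytosines. Of the 28 cytosines, 25 had a mean between 20 and 80%, 3 were hypomethylated (below 20%) and 0 were hypermethylated (above 80%). The 19 cytosines in the coding exon had a mean of 31.3% ± 1.52 and the 9 in the intron 31.8% ± 6.12 (SD, n = 4). In the intronic cytosines Mixed-2 was high, at 40.5%, and B6-1 low, at 26.0%, with Mixed-1 at 30.3% and B6-2 at 30.6%.

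The highest cytosine of the interval was at 4712855 on the forward strand. It was methylated in 63.2% and 64.7% of reads in the Mixed mice and in 28.8% and 52.6% in the B6 mice. Its coverage in the Mixed mice was 19 and 17 reads, against 29 and 25 at the next CpG. That next CpG, at 4712863, was the lowest of the interval. Its forward cytosine was at 10.3% and 8.00% in the Mixed mice and 8.33% and 10.5% in the B6 mice, and its reverse cytosine at 11.4% and 12%, and 3.12% and 1.82%. The CpG was low in every mouse and on both strands, although the following CpG at 4712872 had means of 39.8% and 42.9% on its strands. The third hypomethylated cytosine, at 4712822 on the reverse strand, varied more, from 7.14% in Mixed-2 to 33.8% in B6-1.

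**Figure D1:**
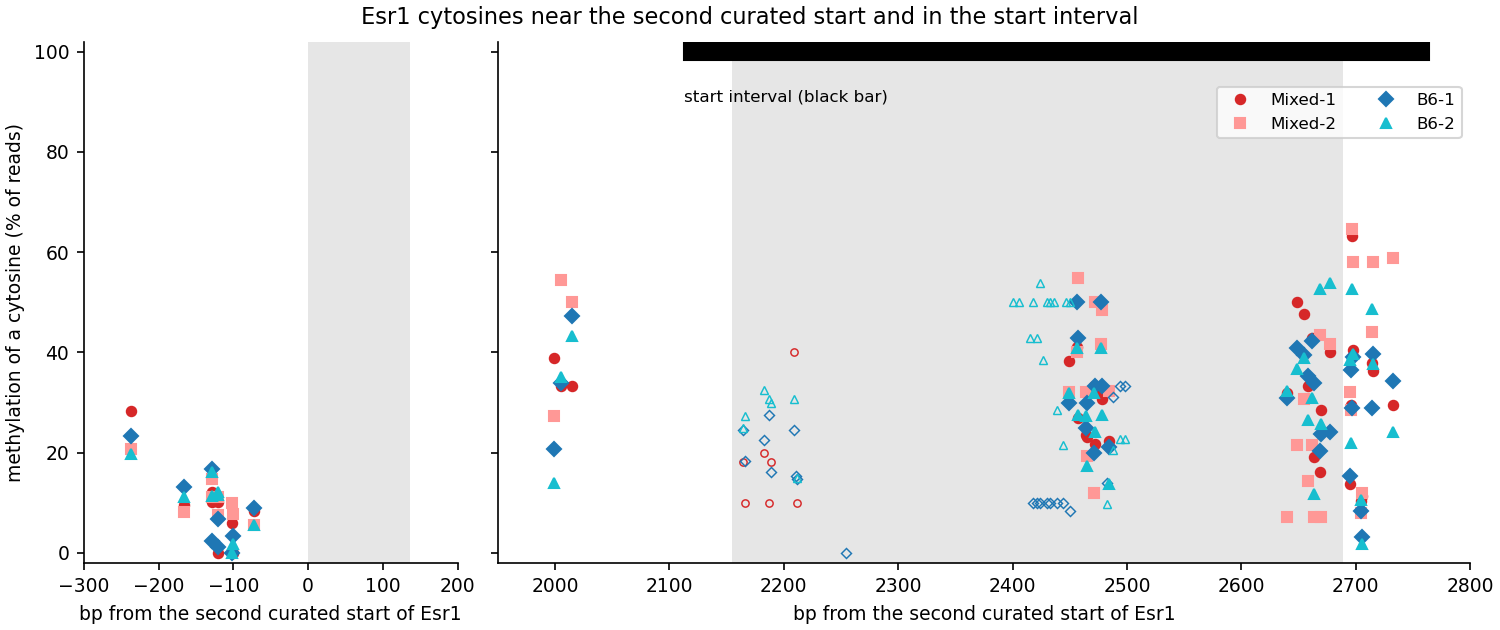
Methylation of each cytosine (% of reads, y axis) against its distance in bp from the curated start at 4710158 (x axis, 2 panels), by mouse. Filled symbols are common cytosines, hollow symbols are cytosines covered in fewer than 4 mice, grey marks curated exons and the black bar the start interval. The stretch between the panels is not drawn. The 9 common cytosines just before the start have a mean of 9.61% and the 28 of the interval a mean of 31.5%.

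Cytosines within 1 MspI read are not independent, because the same reads cover them. The common cytosines of the locus fell into 31 groups that share reads, of which 5 lay in the interval, and 1 cytosine could not be placed. The 5 groups of the interval had means of 33.7%, 30.0%, 29.0%, 33.2% and 32.0%. Individual mice departed further from each other. In the group of 7 reverse cytosines from 4712798 to 4712828, the Mixed mice were at 36.2% and 15.6% and the B6 mice at 35.2% and 29.0%. The low mouse, Mixed-2, had 13 or 14 reads there. In the group of 6 forward cytosines from 4712827 to 4712872, the order differed, with 30.2% and 39.0% in the Mixed mice and 20.9% and 42.8% in the B6 mice.

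The strands of a CpG are covered by separate reads. In the locus, 13 CpGs were common on both strands, 9 of them in the interval. Over the 9, the forward strand had a mean of 32.8% and the reverse strand of 30.3%, and the median gap between the strands of a CpG was 4.97 percentage points. The largest gap of means was 11.8 points, at 4712827. Within a mouse, gaps were wider, up to 38.0 points in Mixed-2 at 4712629.

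**Figure D2:**
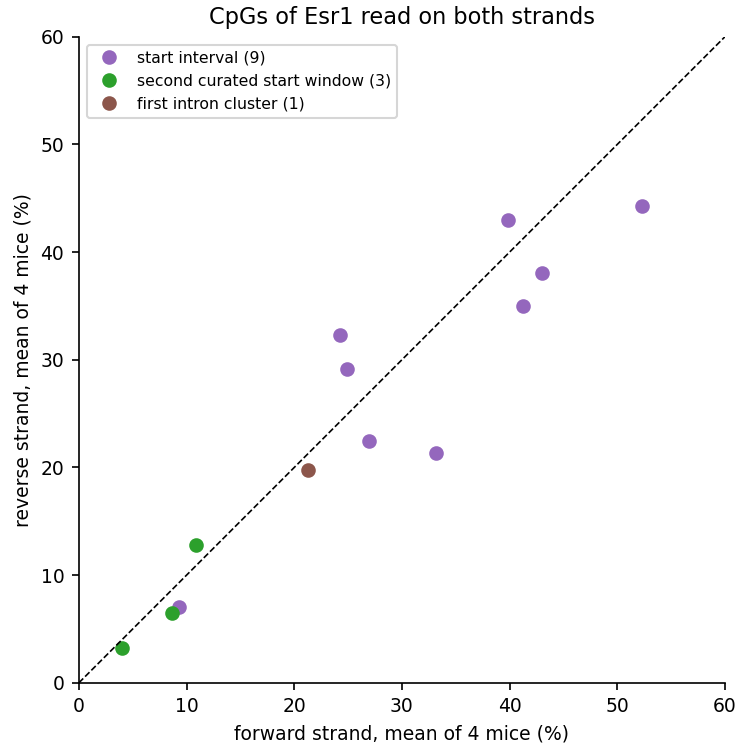
Mean methylation over 4 mice (%) of the reverse strand (y axis) against the forward strand (x axis) for the 13 CpGs common on both strands, coloured by region, with the line of equality dashed. The gap between strands is at most 11.8 points.

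The spread between mice at single cytosines was set beside that of cytosines of like level. For 24 interval cytosines with a mean of 20 to 50%, the median range over the 4 mice was 21.1 points, at a median coverage of 29.5 reads. For all 49018 common cytosines of the series in that band it was 18.8 points, at 49 reads. The part of coverage in this gap was not tested.

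Outside the interval, levels differed by region. The curated start at 4611989, from which NM_007956, NM_001302532 and NR_126357 begin, had 0 common cytosines within 1000 bp. The predicted starts at 4632628, 4644277, 4644286, 4672179 and 4686894 had 0 as well. Within 1000 bp of the curated start at 4710158, from which NM_001302531 and NM_001302533 begin, there were 9 common cytosines at 6 CpGs, all in the intron before it. The predicted start at 4709834 shares these 9. Their mean was 9.39% and 10.7% in the Mixed mice and 8.41% and 9.93% in the B6 mice, or 9.61% ± 0.976 (SD, n = 4). The highest was at 4709921, with 28.3% and 20.7% in the Mixed mice and 23.3% and 19.8% in the B6 mice. The lowest, at 4710057 on the reverse strand, had 0% and 7.69% in the Mixed mice and 3.39% and 1.82% in the B6 mice. The predicted start at 4711966 had 31 cytosines within 1000 bp, the 28 of the interval and the 3 just before it, with a mean of 31.9% ± 1.41.

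Within each mouse, this start window was compared with the other 43 common cytosines of the gene body outside the interval. The difference, window minus body, was -57.5 and -54.4 points in the Mixed mice and -58.2 and -58.8 points in the B6 mice. The mean difference was -57.2 ± 1.97 points (SD, n = 4), lower in 4 of 4 mice, with window and body means of 9.61% and 66.8%. An exact two-sided sign-flip permutation test gave p = 0.125, the smallest that 4 mice allow, so the design cannot reach the 0.05 threshold.

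The first intron held a cluster of 12 common cytosines between 4621215 and 4624730. Their mean was 27.1% and 27.6% in the Mixed mice and 26.7% and 34.5% in the B6 mice, or 29.0% ± 3.73 (SD, n = 4). The cytosines spread widely around that mean. The lowest, at 4621250, was at 0% and 12.5% in the Mixed mice and 10.9% and 15.8% in the B6 mice. The highest, at 4621466, was at 68.1% and 70.9%, and 75.5% and 70.0%. The mice lay farthest apart in the pair at 4621587 and 4621619, where B6-2 averaged 49.0%, against 24.1% and 25% in the Mixed mice and 11.5% in B6-1. In the other 10 cytosines the Mixed mice were at 27.7% and 28.1% and the B6 mice at 29.7% and 31.7%. With reads pooled over the 12 cytosines B6-2 was not the highest, at 33.5% against 35.4% and 34.1% in the Mixed mice and 30.2% in B6-1.

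Between the cluster and the curated start at 4710158, the cytosines at 4708298 and 4708316 were methylated at 95.9% ± 2.66 (SD, n = 4). The 3 cytosines just before the interval, from 4712157 to 4712173, were partly methylated, at 35.2% and 43.9% in the Mixed mice and 34.0% and 30.8% in the B6 mice. Between that start and these 3, cytosines not covered in all mice were highly methylated. The pair at 4711211 and 4711216 was at 95.5% in Mixed-1, on 11 reads, and at 98.3% and 90.4% in the B6 mice. The cytosine at 4711399 was at 100% in both B6 mice and lacked enough reads in the Mixed mice. After the interval, the next common cytosine lay at 4773924 and had a mean of 74.2% ± 6.87.

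The gene body downstream of the interval was mostly hypermethylated. The 23 common cytosines of its introns had a mean of 84.6% ± 1.58 and the 3 of the coding exon at 4997830 to 4998013 a mean of 93.2% ± 4.59 (SD, n = 4). The highest of the introns, at 4838396, was at 96.0% and 96.3% in the Mixed mice and 100% and 99.2% in the B6 mice. The lowest, at 4870215, was at 27.3% in both Mixed mice, on 11 reads each, and at 23.1% and 35.0% in the B6 mice, on 13 and 40 reads. It was low in every mouse, and its neighbour at 4870246 had a mean of 41.8%. Of all 80 common cytosines of Esr1, 16 were hypomethylated, 42 lay between 20 and 80% and 22 were hypermethylated. The locus as a whole had a mean of 48.0% ± 0.634.

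**Figure D3:**
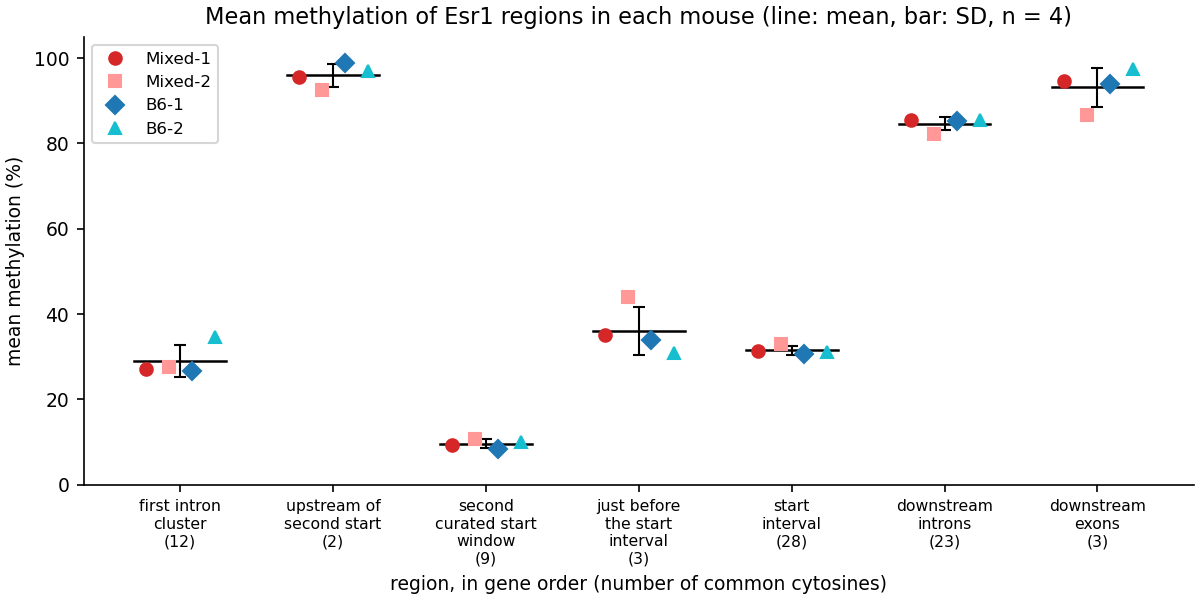
Mean methylation (%, y axis) of the common cytosines of 7 Esr1 regions in gene order (x axis, number of cytosines in brackets) in each of 4 mice, with the mean as a line and the SD as a bar. The start window is lowest at 9.61%, the interval lies at 31.5% and the downstream introns at 84.6%.

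Strain differences were small next to the differences between regions. In the start interval the Mixed mice had a mean of 32.1% ± 1.16 and the B6 mice of 30.9% ± 0.185 (SD, n = 2 each), a difference of 1.22 points. The strains did not overlap, but 14 cytosines were higher in each, and the strains did overlap with a coverage of at least 20 reads and with all cytosines of each mouse. An exact two-sided permutation test over the mice gave p = 0.333, the smallest that 2 against 2 mice allow. The difference was 0.401 points without Mixed-2, 2.04 without Mixed-1 and 3.14 with reads pooled over cytosines. Outside the interval, the Mixed mean was 56.3% ± 0.852 and the B6 mean 57.5% ± 1.47, a difference of -1.24 points (exact permutation p = 0.667). The strains overlapped there, but not with a coverage of at least 20 reads, with pooled reads or with all cytosines of each mouse (exact permutation p = 0.333 each). That difference was -0.203 points without B6-2, -2.28 without B6-1, -0.639 without Mixed-2 and -5.15 with all cytosines of each mouse.

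Single cytosines were tested with a logistic model on methylated and unmethylated reads, fitted over all common cytosines. At an adjusted p under 0.01 and a difference of at least 25 points, 0 of the 80 Esr1 cytosines were called, against 0.00705% of the cytosines of the series. At an unadjusted p under 0.05 there were 3 of 80, against 2.09% of the series. The 3 were at 4710056, 4712864 and 4986461, and the lowest adjusted p among Esr1 cytosines was 1. With limma on log2 ratios, 0 were called, as in the series (0%), and 7 of 80 had an unadjusted p under 0.05, against 13% of the series. With a Fisher's exact test on the reads of each strain summed, which ignores the variation between mice, 0 were called, against 0.126% of the series. There, 9 of 80 had an unadjusted p under 0.05, against 5.31% of the series, and 1 had an adjusted p under 0.05, of 0.0342. The series shares were not matched for level. A mean of 20 to 80% was found at 42 of the 80 Esr1 cytosines, against 148813 of all 1276684. The widest difference of strain means, 23.2 points, was at 4712855 on the forward strand, where B6-1 at 28.8% stood below the other 3 mice.

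The starts of other genes put the Esr1 levels in context. Of 17791 curated starts with at least 5 common cytosines within 1000 bp, 91.3% were below 20%, 5.61% lay between 20 and 80% and 3.05% were above 80%, with a median of 0.294%. The mean of the Esr1 start window was above 88.5% of them.

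**Figure D4:**
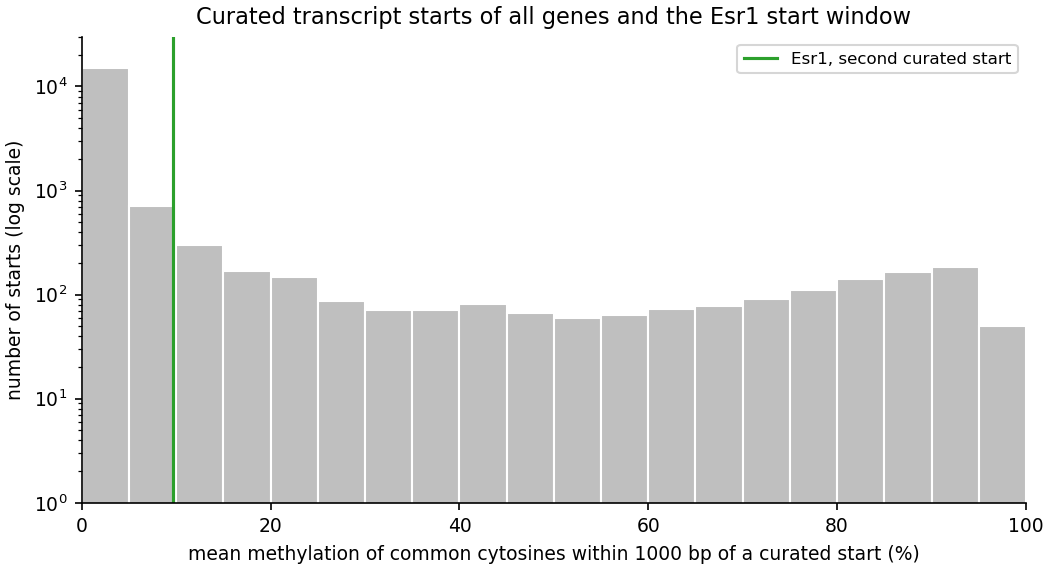
Number of curated starts (y axis, log scale) by the mean methylation of the common cytosines within 1000 bp (%, x axis), for 17791 starts with at least 5 such cytosines. The line marks the Esr1 start window at 9.61%.

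The start windows of the steroid receptors named here were hypomethylated, like 91.3% of all starts, and Esr1 had the highest mean among them. Esr2, which encodes estrogen receptor beta, was at 2.92% ± 0.943 and the progesterone receptor gene Pgr at 1.06% ± 0.375 (SD, n = 4). The glucocorticoid receptor gene Nr3c1 was at 0.103% and the mineralocorticoid receptor gene Nr3c2 at 0.433%. The estrogen-related receptors, orphan receptors that resemble Esr1 in sequence, were at 0.0363% for Esrra, 1.48% for Esrrb and 5.16% for Esrrg. All 9 genes listed as coregulators or partner factors of the receptor were hypomethylated too, a share near the 91.3% of all starts. They ranged from 0.0930% for Nrip1 to 1.40% for Foxa2. Among genes of estrogen synthesis and removal, Hsd17b4 was at 0.202%, and Cyp19a1, Hsd17b1, Hsd17b2 and Sult1e1 had 0 common cytosines there. The membrane estrogen receptor gene Gper1 had 0 as well.

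Of the 6 nearest protein-coding genes, Ccdc170 upstream was partly methylated, at 41.0% ± 5.37 over 4 cytosines. Armt1 and Rmnd1, which share the same 47 cytosines, were at 0.0770%. Downstream, Syne1 was at 2.73% ± 0.603 and Vip at 4.60% ± 0.676 over 3 cytosines, and Myct1 had 0 common cytosines. Start windows of markers gave little check of the tissue. Only 2 of 9 hepatocyte markers were covered, Apoa2 at 0.651% and Hnf4a at 28.7%, and 6 of 10 markers of other liver cells, from 2.70% for Epcam to 88.6% for Pecam1, the last on 1 cytosine.

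The pattern of Esr1 around its curated start at 4710158 filled only 2 bins of 500 bp, with means of 9.61% before the start and 33.4% in the bin that ends 2500 bp after it. Over these 2 bins, 637 other genes could be compared. The nearest by root mean square difference were Sct at 5.78 points, Dll4 at 5.90, Tspan17 at 5.98, Gm14207 at 6.06 and Prph at 6.29. In Sct the bins were at 7.47% and 25.6%, and in Dll4 at 1.70% and 36.1%. Dll4 and Gm14207 start at 119325784 and 119326197 on chromosome 2, so they are neighbours rather than separate loci. With 2 bins the likeness is coarse. The later bin holds cytosines of the start interval, which was selected on its values, so the likeness is only a description.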

How the data were processed

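ERRBS libraries of liver DNA from 4 mice were analysed, 2 per strain. Per the labels the DNA was cut with MspI, while the study also describes ERRBS as combining MspI with TaqαI. Read groups were assigned here from MspI sites only. The authors selected fragments by size, converted them with bisulfite and sequenced 50 cycles from a single end. The submitters' processing notes name Bismark, SAMtools and mm10, while the study's methods name BSMAP as the aligner, so which aligner made the files is not settled. The deposited files give, for each cytosine with at least 10 reads, the coverage as a read count and the percent of reads with C or T. Coverage summed over these cytosines was between 60654199 and 99215153 per mouse, where a read counts once for each cytosine it covers.

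Methylated read counts were computed from percent and coverage. Region levels are means over common cytosines. Each cytosine was fitted with a quasi-binomial logistic model whose overdispersion was moderated with limma 3.58.1 (R 4.3.3) and kept at 1 or above, with Benjamini-Hochberg adjustment over all 1276684 cytosines. The model was tested on simulated data. Regions were compared by exact permutation over mice (Python 3.11.15, scipy 1.17.1). Separate mice are the replicates. Gene models, starts and sequences came from RefSeq GRCm38.p6, the same build as mm10, and both Esr1 promoter windows were matched there.

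The gene, the interval and the gene lists were chosen with earlier results of these data known. Named cytosines were those called between strains, the lowest and highest of each region, and those with an unadjusted p under 0.05 or a wide spread, which were chosen after their values were seen. Named genes were fixed lists, some members of which are not reported here, the 3 nearest protein-coding genes on each side, and the 5 nearest profiles in 500 bp bins within 2500 bp of a start.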

Additional observations from a re-analysis of the deposited data

How the results depend on the processing

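The mean of the start interval stayed within 1 SD of 31.5% with a coverage of at least 20 reads, with pooled reads and with merged strands, and moved to 29.9% with all cytosines of each mouse. Leaving out each mouse gave 31.0 to 31.7%. The mean outside the interval moved from 56.9% to 54.9% with pooled reads, 60.7% with merged strands and 64.2% with all cytosines of each mouse, and was 56.4 to 57.3% without 1 mouse. The strain difference kept its sign in the interval (0.401 to 3.14 points) and outside it (-5.15 to -0.203 points) under the 9 alternatives run for each. Without 1 mouse these were 0.401 to 2.04 and -2.28 to -0.203 points. In the interval, leaving out a mouse could not reverse the sign, since both Mixed mice lay above both B6 mice. The replicate block repeats the main difference in both. Outside the interval, the pairs of same-numbered mice differed in sign, at 0.400 points for number 1 and -2.88 for number 2. The start window stayed below the gene body by -63.1 to -56.7 points under all 8 alternatives, and by -58.2 to -56.7 points without 1 mouse. Leaving out a mouse could not change that sign, since the window was lower in every mouse. The count of called Esr1 cytosines was 0 under every alternative that kept all 4 mice, but this says little about stability. With limma, 0 cytosines were called in the whole series. The widest Esr1 difference with all 4 mice, 23.2 points, is under the 25 required. Only the alternative at 10 points required less, and there the adjusted p decided the count. The widest Esr1 difference was 29.6 points without Mixed-1 and 35.1 points without B6-2, both above 25.

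With the replicate block, which pairs mice of the same number, the mean differences are by construction the same, 1.22 and -1.24 points, with exact permutation p of 0.5 and 1, and 0 Esr1 cytosines were called against 317 over the series. Deviations of same-numbered mice had a correlation of 0.000363 over 148813 cytosines with a mean of 20 to 80%, so the mice share only a number. Of the 28 cytosines of the interval, 19 had at least 20 reads in all mice.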

Other observations

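Of the 27 interval cytosines not covered in all 4 mice, all lacked enough reads in Mixed-2. A group of 7 reverse cytosines from 4712322 to 4712370, in the untranslated part of the exon, had means of 18.1% in Mixed-1, 21.2% in B6-1 and 27.3% in B6-2, on at most 11 reads in Mixed-1. A group of 13 reverse cytosines from 4712564 to 4712608 was read in the B6 mice alone. Its mean was 9.79% over 8 cytosines in B6-1 and 44.5% over 13 cytosines in B6-2, on 10 to 12 and 12 to 14 reads. These cytosines share reads, so the gap between the B6 mice rests on few molecules, and it was not tested.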
